A study of Mus musculus with 6 samples.

Results

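Interferon-inducible GTPase genes were followed in the livers of mice lacking SRC-2 and of wild-type mice. The set held 10 genes: the guanylate-binding protein genes Gbp2, Gbp2b, Gbp3, Gbp6 and Gbp7, and the immunity-related GTPase genes Igtp, Irgm1, Irgm2, Iigp1 and Tgtp1. They were chosen by the log2 fold change of SRC-2 null against wild-type liver on these same arrays, picked for falls, so the differences between genotypes in these genes are a description and carry no test. A gene was measured by every probe set whose platform symbol was exactly its own. That gave 13 probe sets for 9 of the 10 genes, out of 18193 genes with such a probe set on the array. Tgtp1 is listed only together with other symbols and has no value here.

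The livers came from ovariectomized female mice on a C57 background, 3 wild-type and 3 SRC-2 null, the null written SRC-2-/- in the labels. Ovaries were removed at an age of 6 weeks and the mice were killed 2 weeks later under Avertin anaesthesia, in both genotypes. SRC-2 is encoded by Ncoa2 and helps nuclear receptors to activate transcription. The labels describe neither the allele nor the tissue in which it acts, and they do not say whether the arrays of a genotype come from separate animals.

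Both families are large GTPases that cells make after exposure to interferon gamma, a cytokine released mainly by T and NK cells. Binding of the cytokine to its receptor activates Janus kinases, which switch on latent transcription factors of the STAT family. These bind gamma-activated sites (GAS) in promoters, and interferon regulatory factors bind interferon-stimulated response elements (ISRE). The GTPases then gather on the vacuoles of intracellular pathogens and help to disrupt them, in macrophages and in other cells, hepatocytes included.

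Values are log2 expression values made with robust multi-array average (RMA), so a difference of 1 is a doubling. The array medians lay between 4.17 and 4.24. Genes whose mean over the 6 arrays reached 4.21, the median of all probe sets, were tested. All 9 measured GTPase genes were among the 11894 tested, which had a median log2 fold change of 0.00. Ncoa2 fell 5.41-fold in null liver by its brightest probe set (limma adjusted p = 0.000353), a log2 fold change of -2.44 that was -1.20 with the mean of all its probe sets, and its 3 null arrays all read below its 3 wild-type arrays. The 6 hepatocyte markers had mean levels of 13.6 on every array, as the tissue label states. Replicate 3 of either genotype deviated from its group in the same direction across genes (r = 0.52), and the GTPase values are therefore given array by array.

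The guanylate-binding protein genes are described first, and the stretches before their starts are marked for matches to the ISRE and GAS motifs. Each line below gives the 140 bases before the annotated gene start, 5′ to 3′ on the strand of the gene, in lower case, from RefSeq's GRCm38.p6 assembly. Capitals mark the ISRE core, GAAANNGAAA on either strand, and the GAS core, TTCNNNGAA, which reads the same on both strands. Gbp3 has 2 starts in the table, and the one with motifs is shown.
Gbp2, chr3:142620523-142620662, plus strand: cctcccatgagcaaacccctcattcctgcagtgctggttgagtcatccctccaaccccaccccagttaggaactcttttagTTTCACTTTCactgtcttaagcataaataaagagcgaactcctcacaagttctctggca
Gbp2b, chr3:142594707-142594846, plus strand: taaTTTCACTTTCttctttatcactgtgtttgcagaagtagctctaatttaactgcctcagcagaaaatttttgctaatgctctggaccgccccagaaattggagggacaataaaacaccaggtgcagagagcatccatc
Gbp3, chr3:142559904-142560043, plus strand: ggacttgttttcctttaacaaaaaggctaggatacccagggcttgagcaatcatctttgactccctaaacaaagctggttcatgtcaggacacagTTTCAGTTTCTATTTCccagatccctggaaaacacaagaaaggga
Gbp7, chr3:142530196-142530335, plus strand: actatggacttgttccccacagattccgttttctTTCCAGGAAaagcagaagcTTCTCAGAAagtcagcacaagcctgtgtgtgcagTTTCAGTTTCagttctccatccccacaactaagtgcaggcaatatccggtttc

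All 4 stretches hold an ISRE core, all on the strand opposite to the gene, and the Gbp7 stretch alone of these also holds GAS cores. In Gbp3 a pair of ISRE cores overlaps. The 4 genes lie in one cluster on chromosome 3, in the order Gbp7, Gbp3, Gbp2b and Gbp2, so they share ancestry and are not independent examples. Gbp6 lies in a separate cluster on chromosome 5.

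Gbp2, whose protein takes part in the attack on pathogen vacuoles, read 5.35, 5.54 and 5.68 on the wild-type arrays and 4.13, 4.53 and 4.50 on the null arrays. The groups were 0.82 apart at their nearest arrays. The means were 5.53 ± 0.17 (SD, n = 3) and 4.38 ± 0.22 (SD, n = 3), a 2.21-fold lower level in null liver. Its second probe set, 1435906_x_at, fell from 4.99 ± 0.14 to 4.10 ± 0.29, and the name ending _x_at marks a probe set that can detect related transcripts. In bulk liver, fewer cells of a type and less RNA per cell cannot be told apart, here and for every gene that follows.

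Gbp2b, the gene of the mouse protein GBP1, read 5.64, 4.86 and 5.49 on the wild-type arrays and 4.39, 3.94 and 3.84 on the null arrays. Among the brightest probe sets of these genes its spread within each genotype was the widest, with means of 5.33 ± 0.42 and 4.06 ± 0.29 (SD, n = 3), yet the arrays did not overlap. The null level lay below the filter value of 4.21, where RMA values hold mostly background, so the 2.41-fold difference can be understated.

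Gbp3 read 5.77, 5.68 and 6.04 in wild-type and 5.01, 4.94 and 5.37 in null liver. In both genotypes replicate 3 gave the highest Gbp3 value, and the difference between the means was 1.66-fold. Its only probe set, 1418392_a_at, ends in _a_at, which marks several transcripts of one gene. Gbp6 was measured by a pair of probe sets that fell alike. The brighter read 5.84, 6.31 and 6.42 against 5.44, 5.03 and 5.24, a 1.93-fold difference, and 1447927_at fell 2.22-fold from 6.12 ± 0.18 to 4.98 ± 0.13 (SD, n = 3). Close relatives of Gbp6 neighbour it on the chromosome, so its signal may be shared with them.

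Gbp7, whose protein also acts against intracellular pathogens, gave the tightest values of the guanylate-binding protein genes by its brighter probe set only. The probe set 1434380_at read 6.90, 6.95 and 7.04 in wild-type and 6.11, 6.21 and 6.21 in null liver, a 1.73-fold difference. The second probe set of the gene, 1425156_at, did not share it. It read 5.49, 4.99 and 5.31 against 5.42, 5.02 and 4.94, with overlapping groups and a log2 fold change of -0.14. It was the only one of the 13 probe sets whose groups overlapped.

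**Figure D1:**
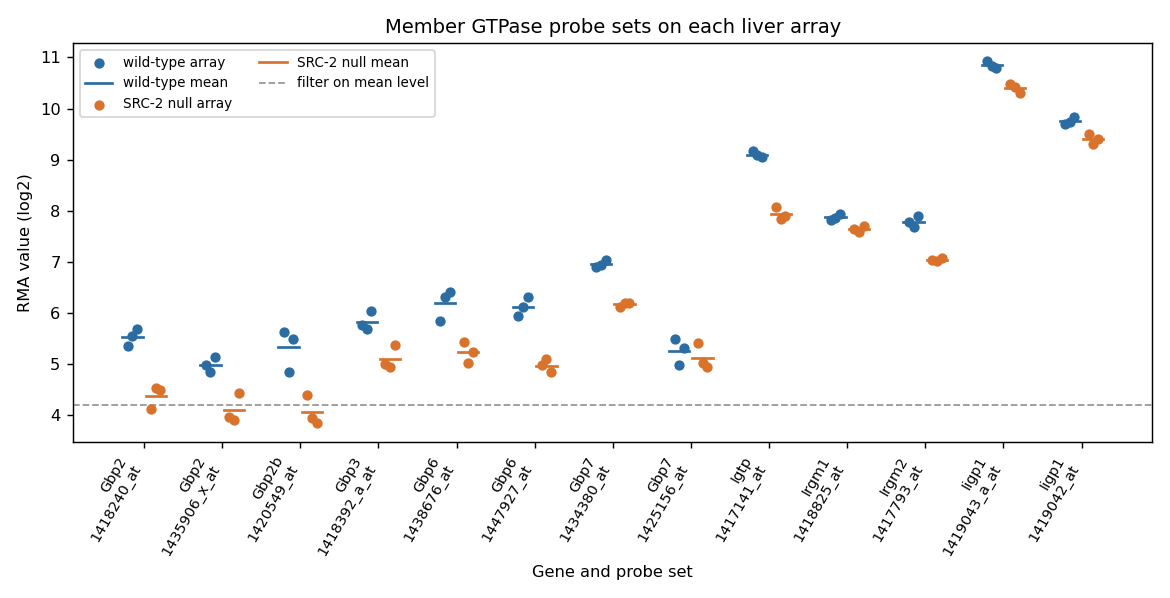
RMA values (log2) of the 13 probe sets on each array, with wild-type arrays in blue, SRC-2 null arrays in orange, a horizontal bar at each group mean (n = 3) and a dashed line at the filter value of 4.21. The null arrays lie below the wild-type arrays at 12 of the 13 probe sets, and Gbp7 has one probe set at which they overlap.

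The immunity-related GTPase genes fall into a regulatory branch, Irgm1, Irgm2 and Igtp, whose proteins keep the other GTPases inactive on the cell's own membranes, and an effector branch that holds Iigp1 and Tgtp1. Their stretches before the start, with the same capitals, show a fixed arrangement of both motifs in 3 of the 4 genes that could be matched.
Igtp, chr11:58199416-58199555, plus strand: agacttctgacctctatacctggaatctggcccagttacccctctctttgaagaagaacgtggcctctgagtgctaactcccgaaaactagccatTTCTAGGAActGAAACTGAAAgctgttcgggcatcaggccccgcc
Irgm2, chr11:58214837-58214976, plus strand: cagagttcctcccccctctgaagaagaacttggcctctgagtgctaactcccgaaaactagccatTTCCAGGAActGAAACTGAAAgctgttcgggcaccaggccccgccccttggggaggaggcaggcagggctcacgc
Tgtp1, chr11:48992247-48992386, minus strand: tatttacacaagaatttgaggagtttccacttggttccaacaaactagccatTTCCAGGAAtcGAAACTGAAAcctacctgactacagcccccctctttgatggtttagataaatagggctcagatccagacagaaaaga
Irgm1, chr11:48871421-48871560, minus strand: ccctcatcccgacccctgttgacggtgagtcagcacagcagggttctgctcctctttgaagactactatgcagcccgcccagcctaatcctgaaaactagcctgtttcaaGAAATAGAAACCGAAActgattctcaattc

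In Igtp, Irgm2 and Tgtp1 a GAS core was followed after 2 bases by an ISRE core. The motifs began 45 and 34 bases before the start in Igtp, 75 and 64 in Irgm2, and 88 and 77 in Tgtp1. Igtp and Irgm2, which neighbour each other, shared an unbroken run of 38 bases. Irgm2 and Tgtp1 shared a run of 20 bases. Irgm1 had a pair of overlapping ISRE cores, starting 30 and 24 bases before its start, and no GAS core in the window of 250 bases before to 50 after the start.

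Across both families, the promoter table held 9 promoters of 8 genes, and 8 of the 9 had an ISRE core within that window, where 3.44% of all 32851 promoters did. The promoter without one was the other Gbp3 start. A GAS core was present in 4 of the 9, against 8.30% of all promoters. Both cores within 20 bases of each other were found in 3 of the 9, against 0.0974%. Gbp6 and Iigp1 had no entry. A match is a run of letters and not evidence that a factor binds there.

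**Figure D2:**
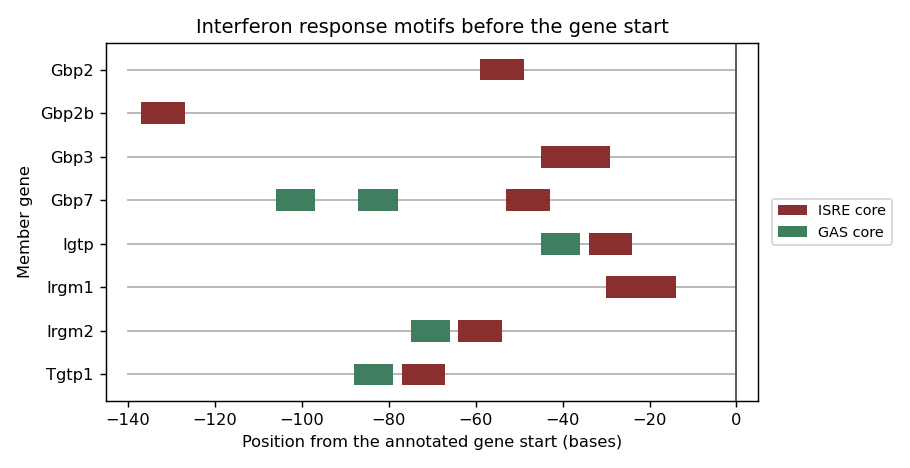
Positions of the ISRE core (red) and the GAS core (green) in bases before the annotated gene start for the 8 genes in the promoter table, where overlapping ISRE cores in Gbp3 and Irgm1 appear as one block. Igtp, Irgm2 and Tgtp1 show the same adjacent pair at different distances from the start.

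Igtp, also called Irgm3, read 9.17, 9.08 and 9.05 on the wild-type arrays and 8.08, 7.85 and 7.91 on the null arrays. The nearest arrays of the genotypes were 0.96 apart, the widest gap among the brightest probe sets of these genes, and the spread within a genotype was small, with means of 9.10 ± 0.06 and 7.95 ± 0.12 (SD, n = 3). The null level was 2.23-fold lower. Irgm2, its neighbour with the near-identical motif pair, read 7.77, 7.69 and 7.90 against 7.04, 7.02 and 7.08, a 1.67-fold difference.

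Irgm1, whose protein is needed for resistance to several intracellular bacteria, moved least. It read 7.83, 7.86 and 7.94 in wild-type and 7.65, 7.59 and 7.70 in null liver, a 1.17-fold difference. The groups did not overlap, with 0.12 between their nearest arrays.

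Iigp1, an effector that coats parasite vacuoles, showed a small difference that a pair of probe sets shared. The brighter, 1419043_a_at, read 10.92, 10.83 and 10.80 in wild-type and 10.48, 10.42 and 10.31 in null liver, 1.36-fold lower. The second, 1419042_at, read 9.71, 9.75 and 9.84 against 9.50, 9.30 and 9.40, 1.29-fold lower. Neither pair of groups overlapped.

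By the brightest probe set, the log2 fold changes were ordered Gbp2b (-1.27, SE 0.22), Igtp (-1.15, SE 0.09), Gbp2 (-1.14, SE 0.13), Gbp6 (-0.95, SE 0.17), Gbp7 (-0.79, SE 0.08), Irgm2 (-0.74, SE 0.09), Gbp3 (-0.73, SE 0.14), Iigp1 (-0.45, SE 0.09) and Irgm1 (-0.23, SE 0.08). The place of Gbp7 rests on the choice of probe set, since the mean of its probe sets gave -0.46. Differences between neighbours in this order were not tested.

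The median log2 fold change of the 9 genes was -0.79. The null arrays read below all wild-type arrays in 9 of 9, where 12.5% of all genes tested had such a pattern. In the fit over all genes, 8 of 9 were called lower at a limma adjusted p under 0.05, all but Irgm1, against 3.13% of all genes tested, and 0 of 9 were called higher, against 1.55%. Because the choice of these genes used this comparison, nothing is read from either count. When 1 array at a time was left out, 4 to 7 of the 9 were called: Iigp1 dropped out without any array but wild-type replicate 3, Gbp3 without any but null replicate 3, Gbp6 without replicate 2 of either genotype, and Gbp2b without null replicate 2. The array-to-array spread was partly shared. Replicate 3 was the highest wild-type array for 6 of the 9 genes and replicate 1 for 3, and replicate 2 was the lowest null array for 5.

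Other members of the GTPase families were mixed. Of 12 listed, 4 had a probe set of their own and 3 were bright enough to test, and 1 of these fell. Ifi47, an immunity-related GTPase also known as IRG-47, fell 1.41-fold, from 7.65, 7.84 and 7.81 to 7.31, 7.31 and 7.20 (limma adjusted p = 0.0172). That call was lost without wild-type replicate 2 or without any single null array, with adjusted p up to 0.0995 over the alternatives. Gbp8 had a mean below the filter and was not tested with the rest. It read 4.65, 4.79 and 4.86 in wild-type and 3.31, 3.58 and 3.26 in null liver, a difference of 2.61-fold, and had a limma adjusted p of 0.000247 when no filter was used. The more distant relatives Irgc1 and Irgq, which are not known as interferon targets, did not pass, at log2 fold changes of 0.02 and 0.12 (limma adjusted p = 0.960 and 0.697).

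**Figure D3:**
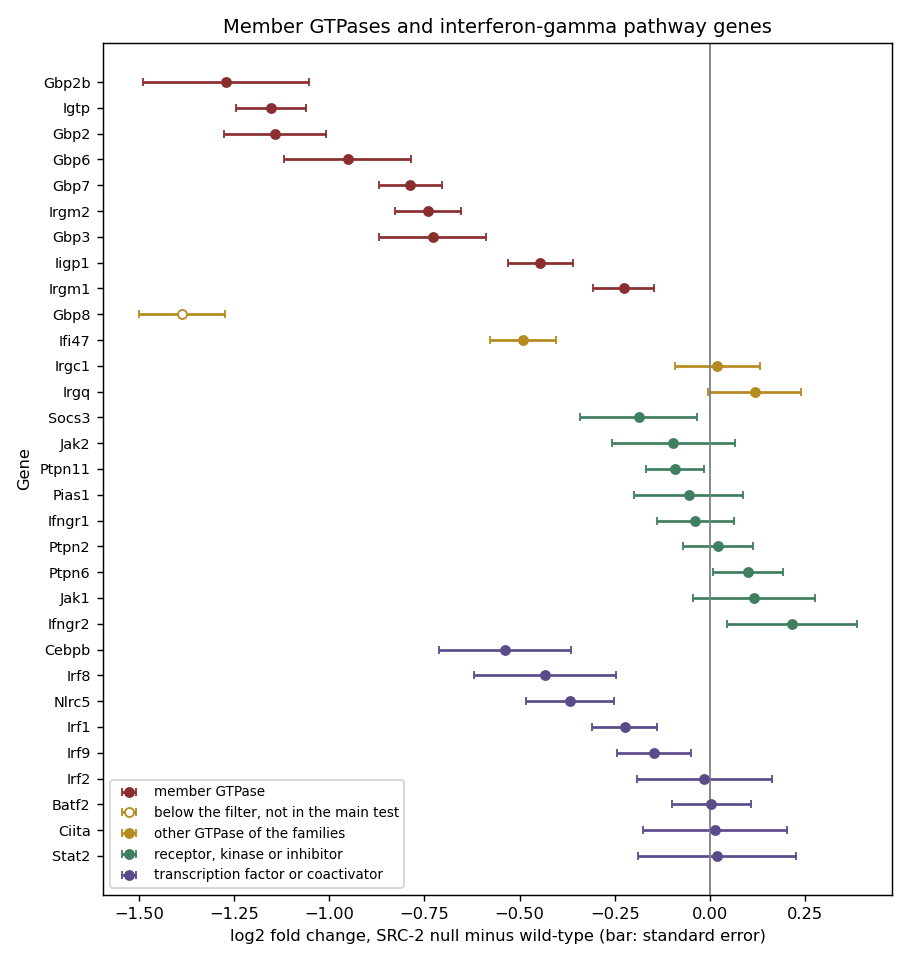
Log2 fold changes (SRC-2 null minus wild-type, 3 arrays each, bars show the standard error) of the 9 measured GTPase genes, other genes of their families, and genes of interferon gamma signalling and transcription. The GTPase genes run from -1.27 to -0.23, and none of the signalling genes or transcription factors passed the test. Gbp8, drawn hollow, lay below the filter.

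No gene of the receptor pathway passed the test. Ifng, the interferon gamma gene, read 3.05, 3.63 and 2.99 in wild-type and 2.85, 2.83 and 2.92 in null liver, near the low end of the scale and below the filter, so its level could not be judged. In limma 0 of 9 tested signalling genes passed, and 0 reached an unadjusted p under 0.05. The receptor genes Ifngr1 and Ifngr2 had log2 fold changes of -0.04 (SE 0.10) and 0.21 (SE 0.17). The kinase genes Jak1 and Jak2 had values of 0.12 (SE 0.16) and -0.10 (SE 0.16), and the inhibitor gene Socs1 lay below the filter with a log2 fold change of 0.25. Only 2 of 11 genes that drive interferon gamma production were bright enough to test, and neither passed in limma. One of them, the cytokine gene Il18, had a log2 fold change of -0.36 and an unadjusted p of 0.00398 (limma adjusted p = 0.0694). Its call depended on the settings. Il18 was called lower with the mean of its probe sets, a filter at a mean of 6, a trended robust fit, the replicate block and a block of replicate 3. It was not called with any 1 array left out.

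Of 9 interferon-responsive transcription factors and coactivators, limma called 0, and 4 reached an unadjusted p under 0.05, all with lower values in null liver. Irf1, which binds ISRE motifs, has a GAS core in the promoter window around 1 of its 2 annotated starts. It read 7.84, 7.92 and 7.91 in wild-type and 7.58, 7.77 and 7.64 in null liver (limma adjusted p = 0.225). Irf8, a factor of macrophages and their precursors, had a log2 fold change of -0.43 (SE 0.19, adjusted p = 0.287), and -0.20 without null replicate 2.

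Among 24 other targets of interferon gamma, 6 fell in limma (25%, against 3.13% of all genes tested) and 18 were not called. None was called higher (1 had a higher value at an unadjusted p under 0.05). Cxcl9, a chemokine that draws T cells, fell 2.18-fold, from 7.08, 7.25 and 7.43 to 6.12, 5.99 and 6.29 (limma adjusted p = 0.00127). Its relatives Cxcl10 and Cxcl11 were not called, at log2 fold changes of -0.03 and 0.42, and Cxcl11 was called higher without wild-type replicate 3 (adjusted p = 0.0478). Psmb8, an immunoproteasome subunit, fell 1.36-fold (limma adjusted p = 0.0278), a call lost whichever array was left out. The remaining 4 were genes of class II antigen presentation, a function of macrophages, B cells and dendritic cells: H2-Aa, H2-Ab1, H2-Eb1 and Cd74 fell 4.05-fold, 3.45-fold, 3.18-fold and 4.16-fold. The list median was -0.25.

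Of 14 tested partners of the GTPases, among them the autophagy genes Atg5, Atg7, Atg12 and Atg3 needed to load GTPases on vacuoles, limma called 0, and 2 reached an unadjusted p under 0.05. These went opposite ways: Atg5 was higher in null liver and Casp1 lower, at log2 fold changes of 0.26 and -0.51 (limma adjusted p = 0.242 and 0.146). Over all these interferon gamma lists, 7 of 61 tested genes fell (11.5%, against 3.13% of all genes) in limma, and 0 were called higher (2 by an unadjusted p under 0.05), with a median log2 fold change of -0.10. The 7 were the class II genes H2-Aa, H2-Ab1, H2-Eb1 and Cd74, and Cxcl9, Ifi47 and Psmb8. Ciita, from the list of transcription factors and coactivators, was not called (log2 fold change 0.01, limma adjusted p = 0.985). With the replicate block, 13 fell: the same 7 and Cd274, Cebpb, Il18, Nlrc5, Psmb10 and Ubd. Of 15 targets of interferons alpha and beta, 3 fell (20%, against 3.13% of all genes). These were the antiviral genes Bst2 (1.64-fold) and Oas1a (1.41-fold) and the regulator gene Irf7 (1.54-fold). The list median was -0.05, and 0 were called higher in limma (2 by an unadjusted p under 0.05). The call of Oas1a was lost without any single array but wild-type replicate 1.

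Markers of macrophages moved with the GTPase genes. Of 17 markers, limma called 15 lower (88.2%, against 3.13% of all genes tested). It called 0 higher (0 higher also by an unadjusted p under 0.05), and the median log2 fold change was -0.94. All 17 were lower at an unadjusted p under 0.05. The 3 with the smallest p, Marco, Cd5l and Timd4, fell 5.10-fold, 2.22-fold and 2.63-fold, and the Timd4 level in null liver (4.18) lay below the filter value, so its fold can be understated. Summed on the linear scale, the 17 markers ranged from 5886 to 6133 in wild-type and from 2857 to 3069 in null liver. The mean of each of the 17 over the 6 arrays lay above the filter, though Fcgr1 (4.04), like Timd4, averaged below it in null liver. The part of the macrophage markers in the values of the GTPase genes was not tested.

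Of 8 tested T and NK cell markers, the source cells of interferon gamma, Ccl5 and Nkg7 fell 2.07-fold and 1.72-fold, and 6 did not pass. The share that fell was 25%, against 3.13% of all genes tested. Nkg7 read 4.04 on average in null liver, below the filter value, so its fold can be understated too. At an unadjusted p under 0.05, 5 of the 8 had lower values in null liver. Among these, Cd3d (4.09) and Gzmb (4.19) also averaged below the filter value in null liver. The summed signal of the 13 markers with a probe set was 379 to 395 in wild-type and 288 to 324 in null liver, and Cd3g, Cd2, Klrd1, Ncr1 and Prf1 lay below the filter. Ccl5, the brightest of the 13 in wild-type liver, weighs most in the wild-type sum. Cd3e, Cd4 and Cd8a were not called, at log2 fold changes of -0.05, -0.07 and 0.07 (limma adjusted p = 0.889, 0.852 and 0.764). Of 5 tested B and plasma cell markers 3 fell (60%), Ighm, Jchain and Mzb1, and 5 of the 5 were lower at an unadjusted p under 0.05. The summed signal of 6 was 1733 to 2129 against 236 to 284, with Ms4a1 below the filter (log2 fold change 0.09). Ighm, the brightest of them in both genotypes, weighs most in this sum and fell 11.7-fold. Cd79a and Cd79b read 1.53-fold and 1.37-fold lower and were not called (limma adjusted p = 0.218 and 0.152). Cd79a averaged 4.14 in null liver, below the filter value. The summed signals of both lists also moved with the values of the GTPase genes, and their part was not tested.

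No marker of hepatocytes, endothelial cells, neutrophils or dendritic cells passed in limma, with 0 of 6, 1 of 6, 0 of 5 and 1 of 3 at an unadjusted p under 0.05. The summed hepatocyte signal overlapped between genotypes, at 80668 to 82142 in wild-type and 81106 to 83181 in null liver. The endothelial and dendritic cell markers at an unadjusted p under 0.05, Lyve1 and Zbtb46, had higher values in null liver, with log2 fold changes of 0.56 and 0.28 (limma adjusted p = 0.0663 and 0.244). Lyve1 was called higher under 7 of 15 alternatives, the replicate block among them (limma adjusted p = 0.0144). The endothelial sums, 919 to 987 and 890 to 1037, overlapped too.

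**Figure D4:**
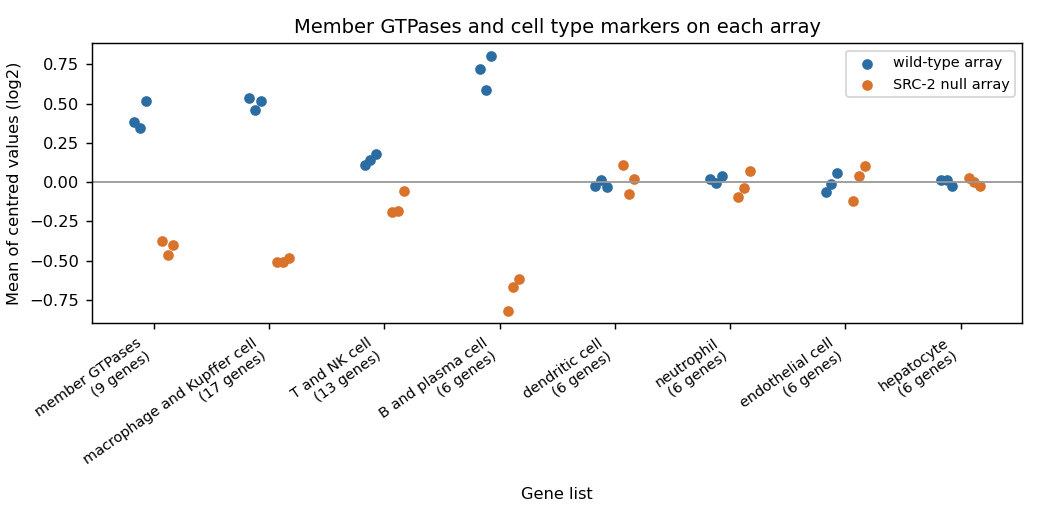
Mean over each gene list of the log2 values centred on each gene's mean over the 6 arrays, one point per array, wild-type in blue and SRC-2 null in orange. The 9 GTPase genes lie between 0.34 and 0.52 in wild-type and between -0.47 and -0.38 in null liver, and the 17 macrophage markers lie between 0.46 and 0.53 and between -0.51 and -0.48.

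The genes whose pattern over the 6 arrays was most like the mean pattern of the 9 GTPase genes were Mpeg1, Trp53inp1, Car3, Cd68 and Fasn. Likeness was the root mean square difference of centred log2 values, which was 0.05 for Mpeg1 and 0.06 to 0.07 for the other four, beside a median of 0.44 over all genes tested. Mpeg1 and Cd68 are macrophage genes and stand in the marker list above, Car3 is a carbonic anhydrase, Fasn is fatty acid synthase, and Trp53inp1 is a target of p53. The GTPase genes themselves lay between 0.05 (Irgm2) and 0.35 (Gbp2b) from their mean pattern. All values come from the same 6 arrays, and the genotype difference dominates the measure.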

How the data were processed

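Total RNA of 6 liver samples was labelled with biotin and hybridised to short oligonucleotide arrays, per the labels. The authors deposited log2 values for 45101 probe sets, made with RMA, per the submitters' processing notes. For the RMA version, chip description and build the entry is: not given in the sources used here. RMA compresses folds near the low end, and detection calls were not used here. Array minima ranged from 1.83 to 1.92 and maxima from 14.5 to 14.6.

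Of the probe sets, 34945 had exactly 1 symbol in the platform annotation, which can be old, 932 named several genes and 9160 no gene, and a further 64 were control probe sets. By gene number, 34741 of the 34945 matched the GRCm38.p6 gene table, and 0 needed a new symbol. The brightest probe set of each gene was tested two-sided with limma 3.58.1 in R 4.3.3 (lmFit, eBayes, genotype as the only term), with Benjamini-Hochberg adjustment over 11894 genes. The members and lists were chosen with earlier results of these data known. Named were all members, each called gene of a pathway list (up to 6), the main signalling genes, every other GTPase of the families with a probe set, up to 3 markers per list by p and the 5 genes nearest in pattern. Others named for a small count were chosen after their values were seen.

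Deviations from the group means correlated between same-numbered samples (r = 0.18, 0.20 and 0.52). A pairing by number is possible, and the labels do not state one. The p-values printed come from the fit without this pairing unless the replicate block is named. With the block, 832 genes were changed in place of 556, and 13 interferon-gamma pathway genes were lower in place of 7. Replicates 1 and 2 correlated across numbers as well (r = 0.17 and 0.21). These values set replicate 3 apart and cannot tell whether numbers 1 and 2 pair samples. The labels do not say that samples are separate animals, so the p-values capture only how these samples vary, and that may be technical variation. The number of arrays limits the precision. On simulated data for this comparison (11894 genes), 58% of genes changed 1.5-fold and 90% of those changed 2-fold were recovered. Plots used matplotlib 3.10.9 (Python 3.11.15).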

Additional observations from a re-analysis of the deposited data

How the results depend on the processing

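The log2 fold changes of the 9 GTPase genes stayed below 0 in all 130 values under the alternatives, from -1.51 to -0.19. The genes were picked for falls on these arrays, so nothing is read from this. As their groups did not overlap, leaving out arrays could not turn a sign, and the blocks do not change the value. The member GTPases median log2 fold change was -0.87 without probe sets ending in _s_at, _x_at or _a_at, and -0.86 to -0.75 with 1 array left out. The Gbp7 value moved to -0.46 with the mean of its probe sets. The number of genes changed was 556, and it was 982 with a block of replicate 3 against the others, 329 with replicates 1 and 2 only, and 275 to 438 with 1 array left out: 329, 275, 301 and 294 without wild-type replicates 1 and 2 and null replicates 1 and 2. The genes lower in SRC-2 null numbered 372 in the main comparison and, in the same order, 607, 234 and 210 to 315. The genes higher in SRC-2 null numbered 184 and, likewise, 375, 95 and 65 to 174, with 307 under the replicate block. The interferon-gamma pathway genes lower (7) numbered 13 with the replicate block and 12 with the replicate 3 block. With 1 array left out they numbered 5 to 6. They numbered 4 without the probe sets ending in _s_at, _x_at or _a_at, which leaves out the probe sets used for H2-Aa, H2-Ab1, Cd74 and Psmb8. Of the 4 then called, 3 were among the 7 (Cxcl9, H2-Eb1 and Ifi47) and H2-D1 was newly called. The interferon-gamma pathway genes higher numbered 0 to 1. Of macrophage markers lower (15), 13 to 14 were called with 1 array left out. The T and NK cell markers lower (2) numbered 4 with the replicate 3 block, 0 with a filter at a mean of 6, and 2 to 3 with 1 array left out. The replicate block moved no other count given in this paragraph by over 1.5 times. Where no construction is named, the cause was not tested. Of 23 called named genes outside the set, 19 kept their call in every alternative that gave a value, and Ifi47, Psmb8, Oas1a and Car3 did not (Car3: adjusted p = 0.424 with the mean of its probe sets). Values near 4.21 are limited by background signal. In null liver this touches Gbp2, Gbp2b, Gbp8, Timd4, Nkg7, Fcgr1, Cd3d, Gzmb, Cd79a, Ubd and Cd274, among others. Lyve1, an endothelial marker not called (adjusted p = 0.0663), was called higher under 7 of 15 alternatives, with adjusted p from 0.00279 to 0.212 over all of them.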

Other observations

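The ISRE core was also counted outside the GTPase genes, where 341 tested genes had it in a promoter window of the RefSeq table. Of these, 20 fell (5.87%) and 2 rose (0.587%), beside 2.91% of the 9594 tested genes in that table that fell and 1.52% that rose. The medians of the log2 fold change were -0.03 and 0.00. For the GAS core, 28 of 785 genes fell (3.57%). The 20 that fell include genes of phagocytes, named after their values were seen: Cybb, the oxidase subunit of the respiratory burst, fell 2.38-fold, Ctss, a cathepsin of antigen processing, 2.27-fold, Fcgr4, an antibody receptor, 3.14-fold, and Aif1, a macrophage protein, 1.83-fold (limma adjusted p = 0.00585, 7.66e-05, 0.00631 and 0.0186). They also include genes of hepatocytes, such as Sult3a1, a sulfotransferase, at 2.84-fold and Ugt2b1, a glucuronosyltransferase, at 1.35-fold (adjusted p = 3.58e-05 and 0.0173). The 2 that rose were Hsd17b10, a mitochondrial dehydrogenase gene, at 1.78-fold and the oestrogen receptor gene Esr1 at 1.34-fold (adjusted p = 0.000811 and 0.0423).

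Both cores within 20 bases stood in 11 other tested genes, of which 1 fell. This was Bst2, a membrane protein that holds budding virus at the cell surface, at 1.64-fold. Irf2, an interferon regulatory factor, and Ifitm3, an antiviral membrane protein, have such a pair too, and had log2 fold changes of -0.02 and -0.17 (limma adjusted p = 0.982 and 0.303).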
